A study of Homo sapiens with 24 samples.

Results

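The TENT5 family of poly(A) polymerases was followed in HCC1954 and JIMT1 cells, a pair of breast cancer lines that carry mutant PIK3CA and are insensitive to the PI3Kα inhibitor BYL719. Each of TENT5A, TENT5B and TENT5C, formerly FAM46A, FAM46B and FAM46C, had 1 probe, so that 3 of the 47323 probes of the Illumina bead array, for 3 of its 20046 named genes, were described, and all 3 belonged to the 21256 probes that passed the filter on detection. The tested cells of each line received BYL719 (1 μM) together with the PDK1 inhibitor GSK2334470 (1 μM), BYL719 alone (1 μM) or GSK2334470 alone (1 μM), and the control cells received the vehicle DMSO, all for 4 hr. There were 3 arrays in each of the 8 groups, 24 arrays in all, labelled as replicates with no word on separate cultures, so that p-values measure the spread between arrays. Each line stands for 1 tumor, and cell line and genotype cannot be told apart.

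The genes were chosen by their measured values: TENT5A was known to be among the largest decreases under the combination in HCC1954, and the family was selected on its directions under treatment in both lines. The combination against DMSO, the departure of the combination from additivity and every difference between the lines in a treatment effect are therefore given as descriptions with no test. BYL719 and GSK2334470 against DMSO were tested, although they share the DMSO arrays with the combination, and the same DMSO arrays served both agents. HCC1954 against JIMT1 with DMSO was tested on these DMSO arrays too. The adjusted p-values of these comparisons are therefore not independent of how the genes were chosen. BYL719 against GSK2334470 shares no array with the combination against DMSO. It does use treated arrays, and the family was selected on its directions under treatment. The choice may thus bear on its adjusted p-values as well.

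TENT5 enzymes are non-canonical poly(A) polymerases. They add adenosines to the tails of mature mRNAs in the cytoplasm, above all to mRNAs that are translated at the endoplasmic reticulum and encode secreted or membrane proteins, and a longer tail generally makes such an mRNA more stable. TENT5A lengthens the tails of collagen mRNAs in mouse osteoblasts and is mutated in a form of brittle bone disease, TENT5B is known from pluripotent stem cells, and TENT5C acts on immunoglobulin mRNAs in plasma cells and is a tumor suppressor in multiple myeloma. The arrays measured the mRNA of these enzymes and not tail length or enzyme activity.

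In the RefSeq annotation of GRCh38.p14, TENT5A lies on the minus strand at chr6:81745730-81752681, TENT5B on the minus strand at chr1:27005020-27012850 and TENT5C on the plus strand at chr1:117606048-117628389. The part of each transcript that the probes bind was not analysed here. Because TENT5A, TENT5B and TENT5C were all lower with both agents in HCC1954, the 250 bases before the annotated start of each gene are shown, 5′ to 3′ on the strand of the gene, from RefSeq at GRCh38.p14 (TENT5A chr6:81752682-81752931, TENT5B chr1:27012851-27013100, TENT5C chr1:117605798-117606047). All 3 members matched the promoter table. Capitals mark CACGTG, the E-box letters, and TATAA, the core of a TATA box.
TENT5A: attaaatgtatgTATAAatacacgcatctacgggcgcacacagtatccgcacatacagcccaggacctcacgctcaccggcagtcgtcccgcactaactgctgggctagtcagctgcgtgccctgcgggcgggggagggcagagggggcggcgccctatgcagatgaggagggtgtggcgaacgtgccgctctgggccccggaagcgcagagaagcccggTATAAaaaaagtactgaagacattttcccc
TENT5B: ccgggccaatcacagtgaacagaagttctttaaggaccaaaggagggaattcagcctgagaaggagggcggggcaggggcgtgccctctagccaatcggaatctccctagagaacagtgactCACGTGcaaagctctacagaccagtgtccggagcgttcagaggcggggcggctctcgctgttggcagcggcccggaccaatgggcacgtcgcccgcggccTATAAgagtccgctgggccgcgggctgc
TENT5C: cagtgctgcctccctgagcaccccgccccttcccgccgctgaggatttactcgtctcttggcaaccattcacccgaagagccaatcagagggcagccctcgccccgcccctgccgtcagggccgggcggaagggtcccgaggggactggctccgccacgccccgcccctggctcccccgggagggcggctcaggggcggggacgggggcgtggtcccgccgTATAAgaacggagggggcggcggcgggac
TATAA was read on the strand of the gene and was added after these sequences were seen. It stood 30 bases before the start in TENT5A, 28 in TENT5B and 29 in TENT5C, and once more at 238 bases in TENT5A. Of 35116 promoters of the same length, 13.6% held TATAA anywhere and 3.57% held it starting 25 to 35 bases before the start. CACGTG, which is its own reverse complement, was found 128 bases before the start of TENT5B alone among the members, and 6.34% of promoters held it. TGTTTAC, the core letters bound by FOXO factors, which AKT and SGK1 restrain, was searched on both strands and was absent from these 3 windows, while 2.98% of promoters held it. None of these matches overlapped.

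The arrays had median intensities of 48.5 to 81.9, and each array detected 41% to 45.2% of its probes, that is, gave them a detection p-value under 0.05 against negative controls. Levels are given as log2 intensity after background correction and quantile normalization, on a scale that understates changes of dim probes. The epithelial markers EPCAM, CDH1, KRT8, KRT18, KRT19 and ERBB2 were detected on 12 of 12 arrays of each line. Among lymphoid and plasma cell markers, PTPRC, CD3E and JCHAIN were detected on 0 arrays, CD79A on 1 and 8 of the 12 arrays of HCC1954 and JIMT1, MS4A1 on 3 and 1 and MZB1 on 6 and 6. Among fibroblast markers, PDGFRB was detected on 0 arrays, COL1A1 on 11 and 12, COL1A2 on 3 and 6, COL3A1 on 0 and 1 and DCN on 1 and 2. The part of other cell types in the results was not tested. The endothelial marker PECAM1 was detected on 12 of 12 arrays of each line and CDH5 on 12 in HCC1954 and 9 in JIMT1.

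TENT5A was detected on 24 of 24 arrays, and its response ran in opposite directions in the lines. In HCC1954 it stood at 8.80, 8.95 and 8.66 with the combination, 9.44, 9.49 and 9.47 with BYL719, 9.58, 9.70 and 9.30 with GSK2334470, and 10.08, 9.86 and 10.15 with DMSO (log2 intensity, replicates 1 to 3). The combination arrays were the lowest of the line, both single agents lay between them and DMSO, and no treated array reached a DMSO array. In JIMT1 it stood at 10.85, 10.76 and 10.94 with the combination, 10.50, 10.56 and 10.42 with BYL719, 9.84, 9.64 and 9.76 with GSK2334470, and 9.96, 10.02 and 10.02 with DMSO. Here the combination arrays were the highest, the BYL719 arrays came next, and all 3 GSK2334470 arrays lay below all 3 DMSO arrays.

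**Figure D1:**
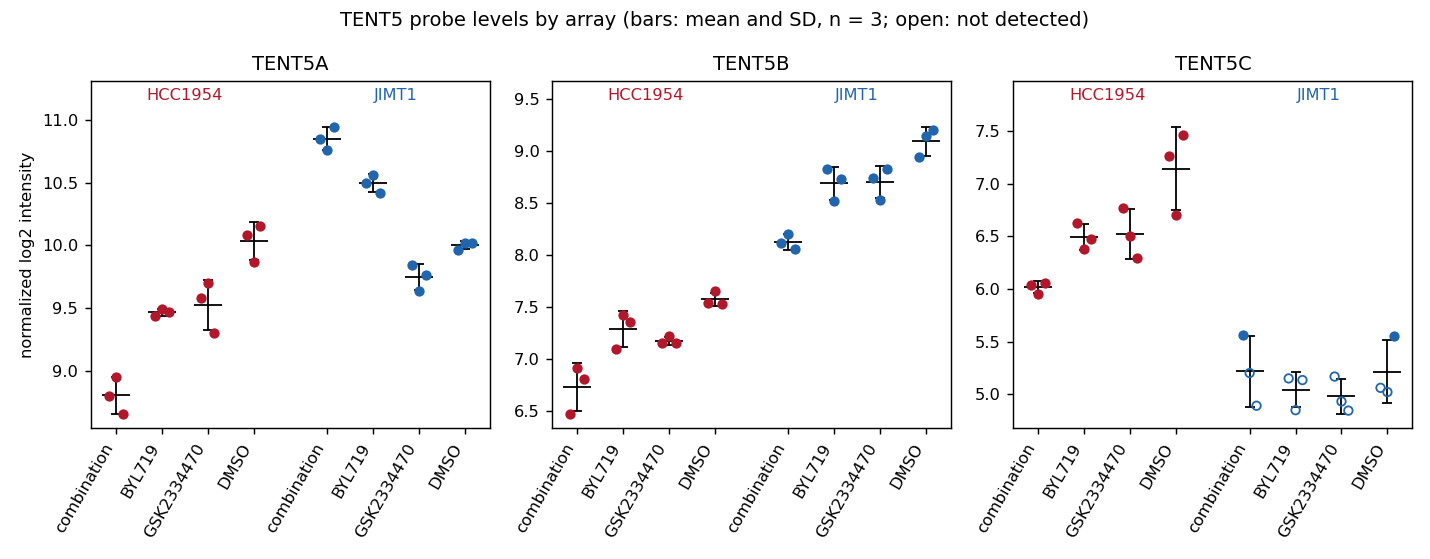
Normalized log2 intensity (y axis) of the TENT5A, TENT5B and TENT5C probes on each array, by treatment and line (x axis), with HCC1954 in red and JIMT1 in blue. Points are arrays, open where the probe was not detected, and bars give the mean and SD of 3 arrays. TENT5A was lowest with the combination in HCC1954 (8.80 ± 0.15) and highest with it in JIMT1 (10.85 ± 0.09), TENT5B was lowest with it in each line, and TENT5C was mostly undetected in JIMT1.

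In HCC1954, TENT5A fell with BYL719, to 9.46 ± 0.03 against 10.03 ± 0.15 with DMSO (log2 mean ± SD, n = 3 each). The log2 difference was -0.57 (SE 0.10, adjusted p = 0.0054 from limma), or 1.48-fold lower. Among all probes tested, 1.09% fell and 1.11% rose in this comparison. With GSK2334470 TENT5A averaged 9.52 ± 0.20, a log2 difference of -0.51 (SE 0.10) from DMSO that missed the threshold (adjusted p = 0.098 from limma). That comparison called 0.0047% of probes in each direction, namely YPEL1 and TDG, while 2565 probes had an unadjusted p under 0.05, TENT5A among them.

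With both agents TENT5A averaged 8.80 ± 0.15 in HCC1954, against 10.03 ± 0.15 with DMSO, a log2 difference of -1.23 (95% interval -1.45 to -1.01) or 2.35-fold lower. This is the comparison that chose the gene. It called 5.09% of all probes higher and 5.45% lower, and 0.0753% of probes had a difference as low as that of TENT5A. On the unnormalized scale the same arrays read 345 to 514 with the combination and 959 to 1556 with DMSO.

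In JIMT1, TENT5A rose with BYL719, to 10.49 ± 0.07 against single arrays of 9.96 to 10.02 with DMSO (SD 0.03). The log2 difference was 0.49 (SE 0.10, adjusted p = 0.0047 from limma), or 1.41-fold higher, in a comparison in which 4.07% of probes rose and 3.4% fell. With GSK2334470 TENT5A averaged 9.75 ± 0.10, a log2 difference of -0.25 (SE 0.10) from DMSO that did not pass (adjusted p = 0.37 from limma). GSK2334470 called 0.616% of probes higher and 0.188% lower in this line. With both agents the mean was 10.85 ± 0.09, and the difference from DMSO was 0.85 (95% interval 0.63 to 1.07), or 1.80-fold higher, where 8.84% of probes were called higher and 7.76% lower.

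The agents were then compared with each other at their common dose. In JIMT1, TENT5A was 0.75 higher with BYL719 than with GSK2334470 on the log2 scale (SE 0.10, adjusted p = 0.00023 from limma), or 1.68-fold. After normalization all 3 BYL719 arrays lay above all 3 GSK2334470 arrays, and 2.48% of probes passed this test. Before normalization these arrays overlapped, at 1127 to 2064 and 758 to 1194. In HCC1954 the same difference was -0.06 (95% interval -0.28 to 0.16, adjusted p = 0.84), the arrays overlapped, and 1.03% of probes passed. Whether this contrast differs between the lines was not tested.

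Both calls of TENT5A with BYL719, and that of BYL719 against GSK2334470 in JIMT1, were lost when arrays were centered on their medians in place of quantile normalization (log2 differences -0.665, 0.446 and 0.712, adjusted p = 0.18, 0.32 and 0.1). The call in HCC1954 was also lost when only the 12 arrays of that line were fitted (adjusted p = 0.057). Before normalization, the BYL719 arrays of JIMT1 read 1127 to 2064 and overlapped the DMSO arrays, at 889 to 1196, whereas those of HCC1954 read 638 to 745 and lay below DMSO. The GSK2334470 arrays read 758 to 1194 in JIMT1 and 735.7 to 959.9 in HCC1954. They overlapped DMSO in both lines, in HCC1954 only at its lowest array, 959.5. Without DMSO replicate 2 or GSK2334470 replicate 2, the decrease of TENT5A with GSK2334470 in HCC1954 passed (log2 differences -0.59 and -0.59, adjusted p = 0.049 and 0.041). Without any other array of these groups it did not pass (adjusted p = 0.22 to 0.36). Nor did it under any other setting, with adjusted p from 0.06 (a larger offset) to 0.66 (median centering).

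The starting level of TENT5A was not found to differ between the lines. With DMSO it averaged 10.03 ± 0.15 in HCC1954 and ranged over 9.96 to 10.02 in JIMT1, a log2 difference of means of 0.03 (95% interval -0.18 to 0.25, adjusted p = 0.8 from limma), in a comparison in which 63.3% of all probes differed. The effect of BYL719 on TENT5A in HCC1954 minus that in JIMT1 was -1.06 log2 units (95% interval -1.37 to -0.75), and that of the combination differed by -2.08 (95% interval -2.39 to -1.77). For GSK2334470, where both lines were below DMSO, the difference was -0.25 (95% interval -0.56 to 0.05). Ordered from the top, TENT5A was highest in JIMT1 with the combination, then in JIMT1 with BYL719, HCC1954 with DMSO, JIMT1 with DMSO, JIMT1 with GSK2334470, HCC1954 with GSK2334470, HCC1954 with BYL719 and HCC1954 with the combination. Neighbors whose arrays overlapped were the DMSO groups of the lines, the GSK2334470 groups of the lines, and GSK2334470 and BYL719 in HCC1954.

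The directions in both lines were known when the family was chosen, so that nothing is read from the count of opposite calls. With BYL719, 4 of 21256 probes (0.0188%) fell in HCC1954 and rose in JIMT1, those of TENT5A, CCN2, KRT80 and LPIN1, and 5 did the reverse, while 108 (0.508%) fell in both lines. The other members were not among the opposite calls.

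**Figure D2:**
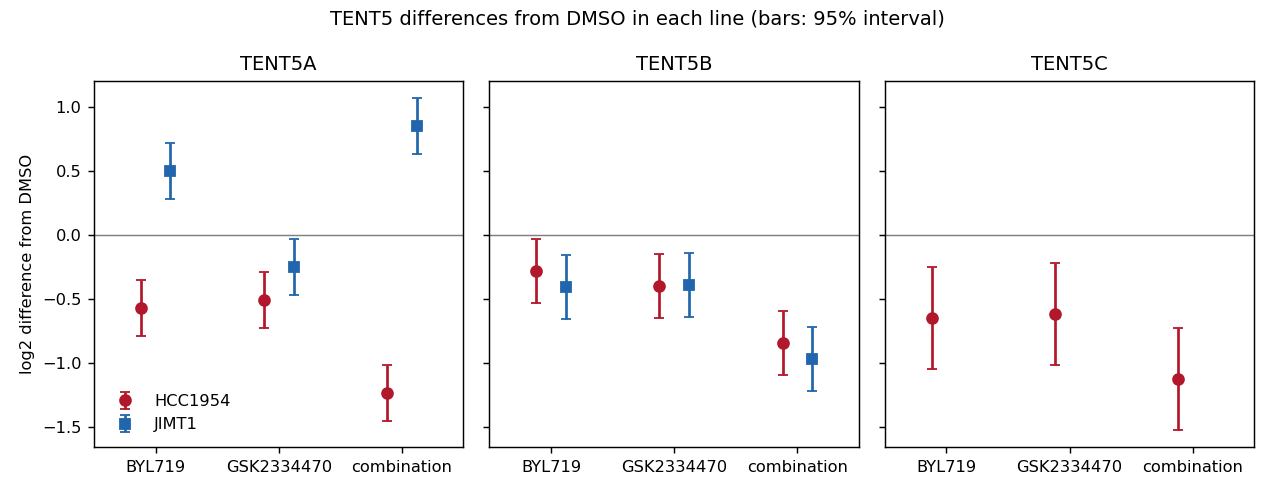
Log2 difference from DMSO (y axis) of TENT5A, TENT5B and TENT5C with BYL719, GSK2334470 and the combination (x axis) in HCC1954 (red circles) and JIMT1 (blue squares), with 95% intervals. TENT5A lay on opposite sides of 0 in the lines with BYL719 and the combination, whereas TENT5B was below 0 in both lines. TENT5C is drawn for HCC1954 alone, because its probe was near background in JIMT1.

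TENT5B was detected on 24 of 24 arrays and was lower with every treatment in both lines. In JIMT1 it stood at 8.12, 8.21 and 8.06 with the combination, 8.83, 8.52 and 8.73 with BYL719, 8.75, 8.53 and 8.83 with GSK2334470, and 8.94, 9.14 and 9.20 with DMSO. In HCC1954 it stood at 6.48, 6.92 and 6.81 with the combination, 7.10, 7.43 and 7.35 with BYL719, 7.16, 7.22 and 7.16 with GSK2334470, and 7.54, 7.65 and 7.53 with DMSO. On this normalized scale all treated arrays lay below all DMSO arrays of their line, the combination arrays lay below both single agents, and the single agents overlapped each other. Before normalization both single agents overlapped DMSO in each line. In JIMT1 the arrays read 367 to 539 with BYL719, 366 to 578 with GSK2334470 and 449 to 683 with DMSO. In HCC1954 they read 174 to 190, 182 to 196 and 180 to 363. The combination arrays, at 256 to 353 in JIMT1 and 96.5 to 148 in HCC1954, stayed below DMSO.

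With BYL719 TENT5B fell in JIMT1, to 8.69 ± 0.16 against 9.10 ± 0.14 with DMSO, a log2 difference of -0.40 (SE 0.12, adjusted p = 0.044 from limma) or 1.32-fold lower. This call was lost without JIMT1 DMSO replicate 2 (log2 difference -0.38, adjusted p = 0.13), DMSO replicate 3 (-0.35, 0.16), BYL719 replicate 2 (-0.32, 0.2) or BYL719 replicate 3 (-0.42, 0.075). It was also lost with median centering (adjusted p = 0.33), with no detection filter (0.092) and with only the JIMT1 arrays (0.065). In HCC1954 the difference with BYL719 was -0.28 (SE 0.12, adjusted p = 0.28), and -0.184 without BYL719 replicate 1. With GSK2334470 it was -0.39 in JIMT1 and -0.40 in HCC1954 (SE 0.12 each, adjusted p = 0.16 and 0.2), and neither passed.

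With both agents TENT5B averaged 8.13 ± 0.07 in JIMT1, against 9.10 ± 0.14 with DMSO, a difference of -0.97 (95% interval -1.22 to -0.72) or 1.96-fold lower. In HCC1954 it averaged 6.73 ± 0.23, against 7.58 ± 0.07 with DMSO, a difference of -0.84 (95% interval -1.09 to -0.59) or 1.79-fold lower. The combination effect differed by 0.13 between HCC1954 and JIMT1 (95% interval -0.22 to 0.48), that of BYL719 by 0.12 (-0.23 to 0.48) and that of GSK2334470 by 0.00 (-0.36 to 0.35). These intervals hold 0 but also differences up to 0.48 log2 units. BYL719 and GSK2334470 differed by -0.01 in JIMT1 (95% interval -0.26 to 0.24, adjusted p = 0.99) and by 0.11 in HCC1954 (-0.14 to 0.36, adjusted p = 0.7).

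The lines differed in the starting level of TENT5B. With DMSO it averaged 7.58 ± 0.07 in HCC1954 and 9.10 ± 0.14 in JIMT1, a log2 difference of -1.52 (SE 0.12, adjusted p = 5.7e-10 from limma) or 2.87-fold lower in HCC1954, with no overlap of arrays. On the normalized scale the JIMT1 arrays with the combination, the lowest of that line, still stood above every HCC1954 array. Before normalization, HCC1954 DMSO replicate 2 read 363, above those JIMT1 arrays at 256 to 353.

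TENT5C was detected on 12 of 12 arrays of HCC1954 and on 2 of 12 of JIMT1, DMSO replicate 3 and combination replicate 1, so that its probe passed the filter only through HCC1954. In HCC1954 it stood at 6.04, 5.95 and 6.06 with the combination, 6.63, 6.38 and 6.48 with BYL719, 6.77, 6.50 and 6.30 with GSK2334470, and 7.27, 6.70 and 7.46 with DMSO. The combination arrays were the lowest and the closest together, the BYL719 arrays all lay below DMSO, and 1 GSK2334470 array overlapped the lowest DMSO array. The 12 JIMT1 arrays read 44.7 to 81.6 in intensity before correction, near background, and no difference between treatments was read among them.

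With BYL719 TENT5C averaged 6.50 ± 0.12 in HCC1954, against 7.14 ± 0.40 with DMSO, a log2 difference of -0.65 (SE 0.19) that did not pass (adjusted p = 0.087 from limma). With GSK2334470 the mean was 6.52 ± 0.24 and the difference -0.62 (SE 0.19, adjusted p = 0.21). DMSO replicate 2 was the low array of its group, and without it the BYL719 difference was -0.87 and passed (adjusted p = 0.022). A larger offset in the background correction also let it pass, at -0.50 (adjusted p = 0.033). It did not pass under any other setting, with adjusted p from 0.06 (1 probe per gene) to 0.27 (without DMSO replicate 3). With the authors' processed values the adjusted p was 0.24, and with median centering 0.15. With both agents TENT5C averaged 6.02 ± 0.05, a difference of -1.12 from DMSO (95% interval -1.52 to -0.73) or 2.18-fold lower, and the unnormalized intensities were 77.6 to 88.7 with the combination and 171 to 207 with DMSO. With DMSO, TENT5C averaged 7.14 ± 0.40 in HCC1954 and 5.21 ± 0.30 in JIMT1, where 1 of 3 arrays was above background, and no fold is given between them.

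The departure from additivity, that is, how far the combination effect exceeded the sum of the single-agent effects, uses the combination arrays that chose the genes and is given with no test. For TENT5A it was 0.61 in JIMT1 and -0.15 in HCC1954 (SE 0.15 each). For TENT5B it was -0.17 in JIMT1 and -0.16 in HCC1954 (SE 0.17 each), and for TENT5C 0.14 in HCC1954 (SE 0.27). Leaving out 1 array at a time moved TENT5A over -0.265 to -0.0683 and TENT5B over -0.262 to -0.0352 in HCC1954, and TENT5B over -0.26 to -0.0958 in JIMT1. Median centering moved the HCC1954 values further, to -0.331 for TENT5A and -0.311 for TENT5B. In JIMT1 it gave 0.675 for TENT5A and -0.107 for TENT5B.

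**Figure D3:**
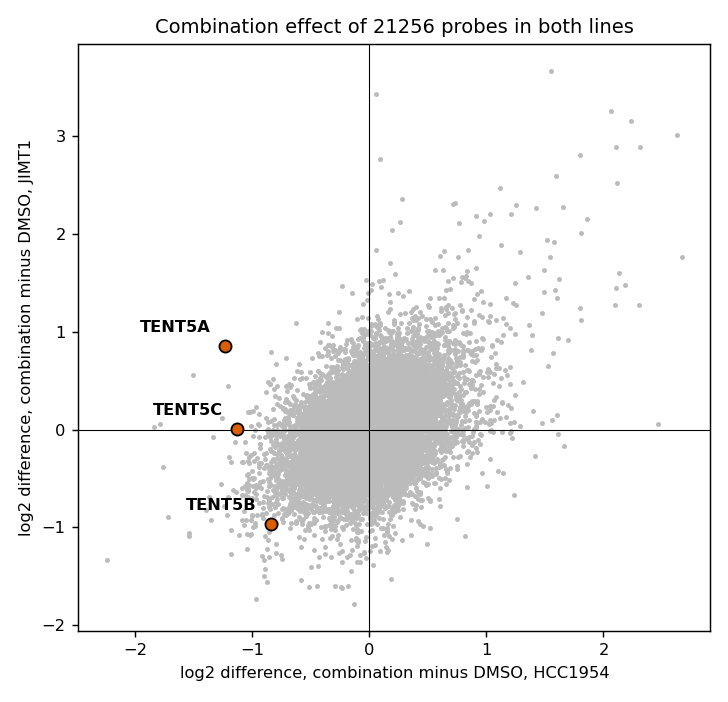
Log2 difference between the combination and DMSO of all 21256 probes, in HCC1954 (x axis) and JIMT1 (y axis), with 1 grey point per probe and the TENT5 members in orange. TENT5A lay at -1.23 and 0.85, apart from the cloud in the upper left, TENT5B lay at -0.84 and -0.97 in the lower left, and TENT5C lay at -1.12 in HCC1954, with a value near background in JIMT1.

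Within HCC1954 the members varied together over the 12 arrays, with Pearson's r of 0.89 between TENT5A and TENT5B, 0.917 between TENT5A and TENT5C and 0.74 between TENT5B and TENT5C. Within JIMT1, r between TENT5A and TENT5B was -0.702. These values describe arrays that share treatments and normalization, and they carry no test. TENT5D, the other family member, was detected on 1 of 24 arrays and was not measured here.

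Over the 24 arrays, after the mean of each line was subtracted, the genes most like TENT5A were TSKU, a secreted proteoglycan (r = 0.868), LYPD1, a membrane-anchored protein (0.865), SUOX, sulfite oxidase (0.856), CHD9, a chromatin remodeler (0.847), and RBM14, an RNA-binding protein (0.844). All 5 had combination differences below 0 in HCC1954, at -0.86 to -0.34, and above 0 in JIMT1, at 0.20 to 0.60. Those most like TENT5B were SRPRB, a subunit of the signal recognition particle receptor (0.896), the nucleotide receptor P2RY2 (0.892), ZNF35 (0.89), L3HYPDH (0.887) and ARMC7 (0.883), with differences below 0 in both lines. P2RY2 had the largest of them, -2.24 in HCC1954 and -1.34 in JIMT1. Those most like TENT5C were the glucose transporter SLC2A1 (0.828), RPP40 of ribonuclease P (0.818), the pseudokinase TRIB3 (0.777), SNX11 (0.773) and STBD1 (0.76), with r of 0.796 to 0.909 in HCC1954 alone. In JIMT1, where TENT5C was detected on 2 of 12 arrays, r was 0.366 to 0.708, and nothing is read from it. The arrays share treatment, line and normalization, and these genes were picked as the highest of all. Their shared direction with each member therefore follows largely from the choice.

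The other genes that make, bind or remove poly(A) tails were read beside the family. Of 51 genes in 6 lists, 40 were measured, each read from its brightest probe. With BYL719 in HCC1954, and with GSK2334470 in either line, 0 of the 40 passed limma's adjusted test, while 7, 6 and 4 of them had an unadjusted p under 0.05 (BYL719 in HCC1954, GSK2334470 in HCC1954 and GSK2334470 in JIMT1). These are 17.5%, 15% and 10% of the genes, near the 13.9%, 12.1% and 10.7% of all probes. With BYL719 in JIMT1 4 of the 40 rose and 2 fell, where 4.07% and 3.4% of all probes did. With the combination in HCC1954 3 rose and 3 fell, beside 5.09% and 5.45% of all probes. With the combination in JIMT1 9 rose and 3 fell, beside 8.84% and 7.76%. The counts of adjusted calls that fell and those of HCC1954 were thus near these shares. At an unadjusted p under 0.05 from limma the combination stood further from them. It had 14 of the 40 genes (35%) in HCC1954 and 16 (40%) in JIMT1, against 23.3% and 29.8% of all probes. BYL719 in JIMT1 had 9 (22.5%), against 19.5%. These shares cover all probes past the filter, whereas the 40 genes were read from their brightest probes. With 1 probe per gene, the combination called 1847 of 12109 genes in HCC1954 and 2592 in JIMT1, in either direction. In HCC1954 that setting called 5 of the 40 higher and 4 lower. Whether the counts in either line exceed such a background was not tested. The median difference of the 40 genes with the combination was -0.03 in HCC1954 and 0.05 in JIMT1, against 0.00 and -0.01 over all probes. Single arrays moved these counts. Without DMSO replicate 1, combination replicate 2 or combination replicate 3 of JIMT1, 4, 5 and 5 genes rose with the combination in that line. With BYL719 in JIMT1, 2 rose without DMSO replicate 2, DMSO replicate 3 or BYL719 replicate 2, 1 fell without DMSO replicate 1 or BYL719 replicate 1, and 0 fell without DMSO replicate 2, DMSO replicate 3 or BYL719 replicate 3. In HCC1954, 1 gene fell with BYL719 without DMSO replicate 2 and 2 without BYL719 replicate 1, and 1 fell with GSK2334470 without its replicate 2.

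Among the other terminal nucleotidyltransferases, TENT4B, which adds mixed tails, fell with the combination in HCC1954 (log2 difference -0.65, SE 0.17, adjusted p = 0.018). The uridylyltransferases TUT1 and TUT7 rose in JIMT1 (0.47 and 0.45, adjusted p = 0.0038 and 0.029), and the rest of the 7 measured enzymes did not pass with the combination in either line. PAPOLA, the main nuclear poly(A) polymerase, was at 0.10 in HCC1954 and -0.05 in JIMT1 with the combination (SE 0.08 each, adjusted p = 0.54 and 0.73). Beside them, the combination differences of TENT5A were -1.23 in HCC1954 and 0.85 in JIMT1 and those of TENT5B -0.84 and -0.97.

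Of 9 measured poly(A) binding proteins and their partners, PAIP2, which holds the poly(A) binding protein away from mRNA, rose with the combination in both lines, with log2 differences of 0.63 and 0.72 in HCC1954 and JIMT1 (adjusted p = 6e-04 and 0.00011). PABPC4 rose in JIMT1 (0.33, adjusted p = 0.02). Of 19 measured deadenylation factors, 2 rose and 2 fell with the combination in HCC1954, and 5 rose and 3 fell in JIMT1. BTG1, which recruits the deadenylase complex, rose by 0.60 and 1.34 in HCC1954 and JIMT1 (adjusted p = 0.0029 and 2.2e-07), the largest rise of the list in each line, and the deadenylase subunit PAN3 rose by 0.34 and 0.33 (adjusted p = 0.044 and 0.036). PAN2 (0.88), CNOT6L (0.47) and CNOT8 (0.38) rose in JIMT1. PDE12, a mitochondrial deadenylase, fell in both lines (-0.56 and -0.50, adjusted p = 0.00081 and 0.0017).

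NOCT, a circadian protein of the deadenylase family, had the largest fall of the list in HCC1954 (-0.82, adjusted p = 0.00051), and BTG3 had it in JIMT1 (-0.55, adjusted p = 0.00057), where CNOT9 fell as well (-0.40, adjusted p = 0.004). With BYL719 alone in JIMT1, BTG1 (0.98), PAIP2 (0.66), PAN2 (0.57) and CNOT8 (0.39) rose and PDE12 (-0.37) and BTG3 (-0.34) fell. FNDC3A and FNDC3B, which anchor TENT5 proteins at the endoplasmic reticulum, had 0 calls with any treatment, with combination differences of -0.06 and 0.15 in HCC1954 and -0.11 and 0.26 in JIMT1. COL1A1 and SPARC, whose mRNAs are substrates of mouse Tent5a, likewise had 0 calls, at -0.04 and 0.15 in HCC1954 and -0.30 and -0.09 in JIMT1. The other listed substrates, COL1A2 and SERPINF1, were not measured. With arrays centered on their medians, 0 of the 40 genes rose and 4 fell with the combination in HCC1954, and 3 rose and 0 fell in JIMT1.

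**Figure D4:**
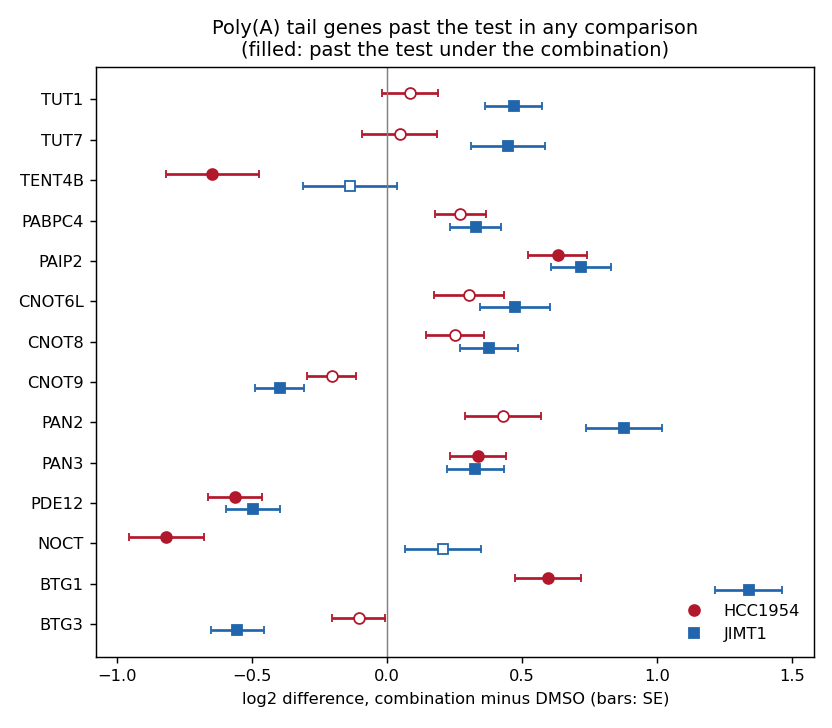
Log2 difference between the combination and DMSO (x axis, bars are SE) of the 14 poly(A) tail genes (rows) that passed the test in at least 1 comparison, in HCC1954 (red circles) and JIMT1 (blue squares), filled where the combination passed. BTG1 rose by 1.34 in JIMT1 and 0.60 in HCC1954, PAIP2 rose and PDE12 fell in both lines, and NOCT had the lowest value, -0.82 in HCC1954.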

How the data were processed

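The authors extracted total RNA of the 24 samples by RNeasy, and biotinylated cRNA was hybridized to Illumina HT-12 arrays. They deposited bead intensities averaged by probe, linear and neither background-corrected nor normalized. A detection p-value, set against negative controls, and a bead number (10 to 32 for the TENT5 probes) were deposited beside each intensity. The submitters' processing notes name GenomeStudio, with a version not given in the sources used here. Processed intensities were deposited as well, their method, background and normalization unstated. They had array medians of 14.1 to 14.2, 28.04% of them were below 0, their log2 values correlated with those used here at r of at least 0.9952 for the TENT5 probes, and they served as an alternative. The bead standard errors were not used.

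Intensities were corrected by neqc in limma 3.58.1 (R 4.3.3) with an offset of 16, which estimates background through the detection p-values, then log2 transformed and quantile normalized over 24 arrays. The filter kept 21256 probes, those with a detection p-value under 0.05 on every array of 1 group or more. Names came from the platform's annotation (30113 probes had 1 symbol, 8 several and 17202 none), and an update by gene ID through RefSeq changed 0 of them. Group means were fitted by lmFit and eBayes over all 8 groups, with p-values of each contrast adjusted by Benjamini-Hochberg over the 21256 probes at a threshold of 0.05. The script was tested on simulated data. Arrays of a group correlated at r of 0.9885 to 0.9937, and precision is limited by 3 arrays a group.

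The members, the poly(A) tail lists and the tests were chosen with earlier results of these data known. Genes named are all TENT5 probes, the list genes past the threshold with the anchors and substrates, and the 5 genes most correlated with each member. PAPOLA and the cell type markers were named beside this rule, PAPOLA after its values were seen. Opposite calls by BYL719 and the probes called by GSK2334470 were named after their values were seen. Alternatives were a larger offset, no background correction, median centering, the authors' processed values, other filters, 1 probe per gene, fewer arrays, a replicate block and leaving out each array.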

Additional observations from a re-analysis of the deposited data

Results flagged for a closer look

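The effect of the combination on TENT5A ran one way in every HCC1954 array and the other way in every JIMT1 array, and differed between HCC1954 and JIMT1 by -2.08 on the log2 scale. On the normalized scale the same held for BYL719 alone, where the effects differed by -1.06. Neither difference was tested, because the gene was chosen with its directions in both lines known, and line and any other difference between the sets of arrays cannot be told apart.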

How the results depend on the processing

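Of 255 alternative values of the members in tested comparisons, 232 kept their direction and side of the threshold, 11 lost a call, 4 gained one and 8 changed sign. Of 195 values described without a test, 190 moved by less than the replicate spread and 5 by more. Part of both counts was fixed in advance. Other filters, 1 probe per gene, the replicate block and fewer arrays cannot change the difference itself, only its adjusted p. Leaving out an array cannot move a difference between a pair of groups beyond that spread. The counts of values kept are therefore no measure of robustness. With median centering, the BYL719 differences were -0.665 for TENT5A in HCC1954, 0.446 for TENT5A in JIMT1 and -0.428 for TENT5B in JIMT1 (all calls lost), the combination difference of TENT5A in HCC1954 was -1.4, that between BYL719 and GSK2334470 for TENT5A in JIMT1 was 0.712 (call lost), and signs turned for TENT5B between the agents in HCC1954 (-0.0693) and for the departure of TENT5C from additivity (-0.00853). This scaling moved the median of all probes in HCC1954 to 0.106 with GSK2334470, -0.107 with the combination, -0.166 between the agents and -0.161 for additivity. It called 43 probes with BYL719 in HCC1954 in place of 468, 352 in JIMT1 in place of 1589, 948 and 1275 with the combination in place of 2240 and 3529 (HCC1954 and JIMT1), 25 with GSK2334470 in JIMT1 in place of 171, and 39 and 105 between the agents in place of 218 and 528. With no detection filter, 284 probes passed with BYL719 in HCC1954, 112 between the agents there and 110 with GSK2334470 in JIMT1. With 1 probe per gene, 8446 genes differed between the lines with DMSO, against 13447 probes. With only the arrays of the line, BYL719 gave -0.568 for TENT5A in HCC1954 and -0.404 for TENT5B in JIMT1, and no detection filter gave -0.404 as well, with the call of TENT5B lost. With an offset of 50, TENT5C in HCC1954 read -0.5 with BYL719, which passed, and -0.832 with the combination. Of the poly(A) tail genes, median centering left 0 higher and 4 lower with the combination in HCC1954, 1 higher and 0 lower with BYL719 in JIMT1, and 3 higher and 0 lower with the combination in JIMT1. With 1 probe per gene, 1 was lower with BYL719 and 5 were higher with the combination in HCC1954.

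Leaving out 1 array at a time gave ranges of -0.593 to -0.397 for TENT5A with GSK2334470 in HCC1954, -0.481 to -0.316 and -0.349 to -0.184 for TENT5B with BYL719 in JIMT1 and HCC1954, 0.0466 to 0.212 for TENT5B between the agents in HCC1954 and -0.866 to -0.486 for TENT5C with BYL719 in HCC1954. Signs turned only where values were near 0, for TENT5A between the agents in HCC1954 (-0.172 to 0.0249) and between the lines with DMSO (-0.0274 to 0.118), for TENT5B between the agents in JIMT1 (-0.0972 to 0.0764), and for TENT5C in HCC1954 between the agents (-0.139 to 0.0964) and for additivity (-0.0192 to 0.361). Counts of tail genes ranged over 0 to 2 lower with BYL719 and 0 to 1 lower with GSK2334470 in HCC1954, and over 2 to 4 higher and 0 to 2 lower with BYL719 and 4 to 8 higher with the combination in JIMT1. Same-numbered arrays did not deviate together (18 pairs of arrays a line, r of -0.216 to 0.221), so the numbers do not pair them. With a replicate block, the BYL719 differences of TENT5A were -0.568 and 0.494 in HCC1954 and JIMT1 (adjusted p = 0.017 and 0.013), the block changed no call of a member, and it called 125 probes between the agents in HCC1954 in place of 218. A slide block was not run, since no slide is given. The causes of these shifts were not tested. Intensities near background limit TENT5C in JIMT1.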
